A study of Mus musculus with 107 samples.

Results

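In mouse embryonic stem (ES) cells of the E14 line, 16552 of 23415 PRC2 peaks on chromosomes 1 to 19 and X overlapped no H3K27me3, CTCF or RNA polymerase II (RNAPII) ChIP-seq peak by even 1 bp. These unmarked PRC2 peaks were chosen by the authors' own peak calls in those 4 lists, so the absence of the 3 ChIP signals is how they were selected and not a finding. They divided into 8339 peaks that overlapped a peak of the RNAPII ChIA-PET list and 8213 that did not, so 50.4% had RNAPII ChIA-PET signal (95% exact binomial interval 49.6% to 51.1%, counting error only). Of the PRC2 peaks left outside, 3847 overlapped H3K27me3, 2286 overlapped RNAPII ChIP without H3K27me3, and 730 overlapped CTCF alone.

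Polycomb repressive complex 2 is built around the subunits Eed, Suz12 and Ezh2, of which Ezh2 is the enzyme that methylates lysine 27 of histone H3. In ES cells it is best known at CpG-rich starts of developmental regulators, where it keeps transcription low and where its target genes contact each other over long distances. ChIA-PET joins DNA ends that are held together by a precipitated protein and sequences them as paired-end tags (PETs), so a single library gives both places of enrichment and pairs of places in contact.

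The E14 cells were grown without feeder cells, on gelatin, with serum and leukaemia inhibitory factor. Their PRC2 map pools 11 Suz12, 7 Ezh2 and 6 Eed ChIA-PET libraries, the RNAPII ChIA-PET map 4 libraries, and the ChIP maps 4 RNAPII, 2 H3K27me3 and 2 CTCF libraries, so these maps carry no replicate error. The B6NJ lines are a second kind of mouse ES cell, grown on irradiated mouse embryonic fibroblast feeders with the MEK inhibitor PD0325901 and the GSK3 inhibitor CHIR99021. Deletion clones chr9-F1 and chr9-G9 lack chr9:37451506-37461721, clones chr7-D4 and chr7-F4 lack chr7:143440438-143450716, clones chr3-C2 and chr3-H7 and clones chr2-D10 and chr2-G5 carry deletions whose interval the labels do not state, and the undeleted B6NJ line is their parent. Ezh2 ChIA-PET exists for the chr9 and chr7 clones and the parental line, with 2 libraries each, made after AluI digestion with 1 antibody. RNA exists for the 8 clones and the parental line, with 3 libraries each except 2 for chr9-F1. Each deletion thus rests on 2 clones set against 1 parental line, and nothing in the labels names replicates as separate cultures, so a p-value covers only how much these libraries varied. For Ezh2 library 1 of chr9-F1 the title names the clone while the cell type label reads as the parental cells, and the library was grouped by its title. RNA depth was 39.7 to 60.2 M counts for the chr7, chr3 and chr2 clones, 90.3 to 128 M for the chr9 clones and 98.2 to 122 M for the parental line.

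The peaks lie at starts of very different base composition, which the following gene starts show as single examples. Each line is the RefSeq window (GRCm38.p6, the base sequence of mm10) from 250 bases before to 50 after the annotated start, read 5′ to 3′ on the strand of the gene, with every CpG in capitals. Lpp, which encodes a LIM-domain protein of focal adhesions (chr16:24721605-24721904, plus strand), and Stap2, which encodes a signalling adaptor (chr17:56005557-56005856, minus strand), lie under strong peaks with RNAPII ChIA-PET.
Lpp: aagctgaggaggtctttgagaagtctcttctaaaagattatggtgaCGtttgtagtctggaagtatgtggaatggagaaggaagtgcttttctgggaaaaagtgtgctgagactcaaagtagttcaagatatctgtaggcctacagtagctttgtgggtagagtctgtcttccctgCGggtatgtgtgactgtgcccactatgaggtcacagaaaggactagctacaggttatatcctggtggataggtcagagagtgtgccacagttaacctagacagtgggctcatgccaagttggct
Stap2: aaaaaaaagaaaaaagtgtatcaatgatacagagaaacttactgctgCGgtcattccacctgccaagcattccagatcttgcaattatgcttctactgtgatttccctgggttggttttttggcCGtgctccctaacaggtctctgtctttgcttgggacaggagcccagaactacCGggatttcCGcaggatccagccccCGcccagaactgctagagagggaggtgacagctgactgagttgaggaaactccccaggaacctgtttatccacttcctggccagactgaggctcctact
Cited1, a transcriptional co-regulator that binds CBP and p300 (chrX:102250727-102251026, minus strand), Arhgap6, which encodes a GTPase-activating protein (chrX:168794849-168795148, plus strand), and Irf4, a transcription factor of lymphoid cells (chr13:30748983-30749282, plus strand), lie under strong peaks without RNAPII ChIA-PET that cover the whole window.
Cited1: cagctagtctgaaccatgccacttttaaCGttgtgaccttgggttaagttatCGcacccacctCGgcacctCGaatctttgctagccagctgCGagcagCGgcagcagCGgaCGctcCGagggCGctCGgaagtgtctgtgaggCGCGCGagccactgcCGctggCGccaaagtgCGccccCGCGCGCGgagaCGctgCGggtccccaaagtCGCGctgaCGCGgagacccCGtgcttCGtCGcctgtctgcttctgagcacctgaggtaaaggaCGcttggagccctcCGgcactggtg
Arhgap6: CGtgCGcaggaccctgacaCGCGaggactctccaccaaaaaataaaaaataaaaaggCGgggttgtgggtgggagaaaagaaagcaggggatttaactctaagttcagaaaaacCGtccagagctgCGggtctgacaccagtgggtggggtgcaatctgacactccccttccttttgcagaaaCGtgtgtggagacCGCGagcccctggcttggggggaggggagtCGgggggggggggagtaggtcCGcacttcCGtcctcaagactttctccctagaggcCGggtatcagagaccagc
Irf4: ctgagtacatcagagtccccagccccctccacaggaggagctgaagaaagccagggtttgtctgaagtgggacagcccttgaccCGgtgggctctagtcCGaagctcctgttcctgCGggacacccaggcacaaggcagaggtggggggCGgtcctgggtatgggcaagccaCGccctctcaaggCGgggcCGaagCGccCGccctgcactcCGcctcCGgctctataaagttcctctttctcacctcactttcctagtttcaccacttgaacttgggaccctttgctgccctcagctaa
The Lpp window holds 2 CpG and the Stap2 window 5, while the Cited1, Arhgap6 and Irf4 windows hold 32, 14 and 11. The ratio of observed to expected CpG was 0.137 for Lpp, 0.267 for Stap2, 1.02 for Cited1, 0.586 for Arhgap6 and 0.398 for Irf4. These 5 windows do not stand for their classes: over all promoter windows under unmarked peaks the median ratio was higher with RNAPII ChIA-PET, at 0.605, than without it, at 0.515. Lpp and Stap2 lay below the median of their class and Cited1 and Arhgap6 above theirs, while Irf4 lay below its own.

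Of 1072 microRNA loci in the RefSeq table, 9 overlapped an unmarked PRC2 peak: Mir152, Mir1932, Mir3968, Mir5103 and Mir6236 with RNAPII ChIA-PET, and Mir5099, Mir6337, Mir6537 and Mir7236 without. The mature sequences of the locus found in most Ezh2 libraries below, Mir152, and of the locus under the strongest of these peaks, Mir6236, are given 5′ to 3′ with the seed, bases 2 to 8, in capitals.
mmu-miR-152-5p: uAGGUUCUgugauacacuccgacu
mmu-miR-152-3p: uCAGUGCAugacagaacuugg
mmu-miR-6236: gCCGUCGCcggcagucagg
No seed is shared among these 3. The Mir152 peak (chr11:96849788-96850845) was 1058 bp long with a fold enrichment of 1.81, and the Mir6236 peak (chr9:110281062-110281572) was 511 bp long with a fold enrichment of 29. Fold enrichment is the authors' own value per peak, the signal over their background.

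Unmarked PRC2 peaks were short. Median length was 255 bp with RNAPII ChIA-PET and 254 bp without, against 2956 bp for PRC2 peaks with H3K27me3. The shortest length in every list was 250 bp, and 23.8% of peaks with RNAPII ChIA-PET and 39.1% of those without were exactly that long, against 0.13% of PRC2 peaks with H3K27me3. Peaks over 1500 bp made up 3.84% and 5.38% of the unmarked kinds and 82.6% of PRC2 peaks with H3K27me3. All unmarked peaks together covered 7.76 Mb, against 14.9 Mb for the 3847 with H3K27me3. Length is not independent of the rule, since a longer peak has more bases that another list can touch, so these values are a description.

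**Figure D1:**
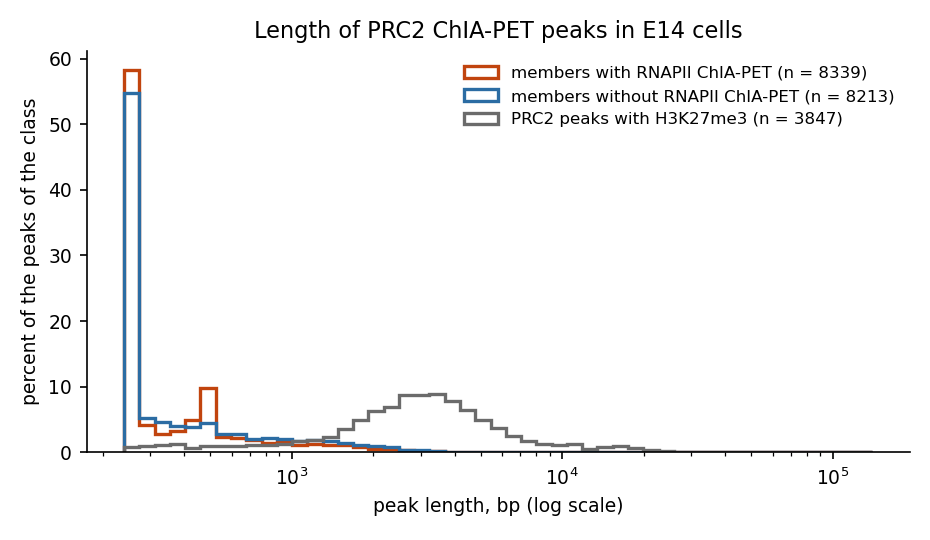
Length of PRC2 ChIA-PET peaks in E14 cells on a log axis (bp), as percent of the peaks of each class, for unmarked peaks with RNAPII ChIA-PET (n = 8339), unmarked peaks without it (n = 8213) and PRC2 peaks with H3K27me3 (n = 3847). Both unmarked kinds pile up at the minimum of 250 bp, while peaks with H3K27me3 centre near their median of 2956 bp.

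Enrichment was higher and far more spread among unmarked peaks with RNAPII ChIA-PET. Their median fold was 2.9, with quartiles of 2.01 and 5.2 and a maximum of 12514. Peaks without RNAPII ChIA-PET had a median of 1.94, quartiles of 1.68 and 2.42 and a maximum of 75.8. PRC2 peaks with H3K27me3 had a median of 5.26 and a maximum of 1868. At the edge of the rule, the 205 unmarked peaks within 100 bp of a peak of the 3 excluded lists had a median fold of 1.77 and a median length of 340 bp, and 60% had RNAPII ChIA-PET. The 250 PRC2 peaks that overlapped those lists by at most 100 bp had a median fold of 1.71 and a median length of 432 bp, and 59.6% had RNAPII ChIA-PET.

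The PRC2 and RNAPII ChIA-PET lists often marked the very same bases. Of unmarked peaks with RNAPII ChIA-PET, 1414 (17%) had an RNAPII ChIA-PET peak with identical start and end, and 3729 (44.7%) shared at least 1 edge with one. Over all 8339, the Spearman correlation between the 2 fold enrichments was 0.599, and over the 1414 of identical coordinates it was 0.715. It was 0.582 over the 4614 peaks up to 260 bp and 0.592 over the 3725 longer ones. These correlations run across sites of 2 pooled maps made by the same method in the same line, and are given as a description.

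**Figure D2:**
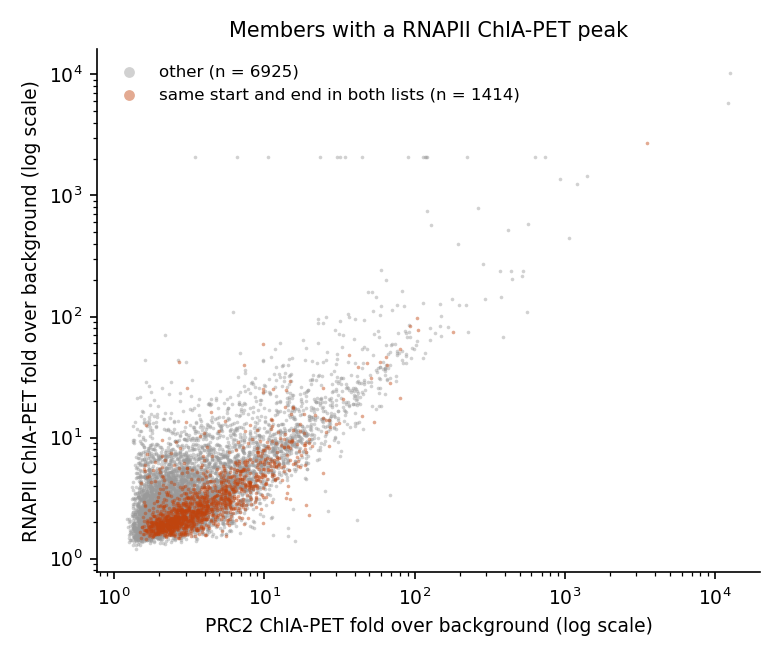
RNAPII ChIA-PET fold over background against PRC2 ChIA-PET fold over background (both log axes) for the 8339 unmarked peaks that have both, with the 1414 peaks of the same start and end in both lists in orange and the others in grey. The points follow a common diagonal, with a Spearman correlation of 0.599 over all and 0.715 over the 1414.

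Most unmarked peaks lay away from gene starts. A protein-coding start lay within 2 kb of 1098 peaks with RNAPII ChIA-PET (13.2%) and 1167 without (14.2%), against 2765 (71.9%) of PRC2 peaks with H3K27me3. For all unmarked peaks the share was 13.7%, and it was 7.79% within 500 bp and 21.1% within 5 kb. The rule also leaves out PRC2 peaks with RNAPII ChIP and no H3K27me3, of which 71.3% lay within 2 kb of a protein-coding start. The low share at starts is thus partly set by the selection. The median distance to the nearest such start was 31.9 kb and 31.3 kb for the unmarked kinds, and 0 kb with H3K27me3. Midpoints lay inside a protein-coding gene for 47.1% with RNAPII ChIA-PET, 48.9% without and 78.1% with H3K27me3. The kinds parted in their surroundings: an H3K27me3 peak lay within 10 kb of 5.92% with RNAPII ChIA-PET and of 16.9% without. An RNAPII ChIP peak lay within 10 kb of 19.2% with RNAPII ChIA-PET and of 11.9% without, while for CTCF the shares were 29.5% and 31.3%.

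Peak length separated these settings further. Among peaks up to 260 bp, 5.79% with RNAPII ChIA-PET and 3.85% without lay at a protein-coding start, while among longer peaks the shares were 22.3% and 25.5%. An H3K27me3 peak lay within 10 kb of 3.51% of the peaks up to 260 bp with RNAPII ChIA-PET and of 5.42% of those without. Among peaks over 260 bp the shares were 8.91% and 29.4%, and between 261 and 400 bp they were 8.57% and 37%. The longer peaks without RNAPII ChIA-PET were thus the kind that most often had an H3K27me3 peak nearby.

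**Figure D3:**
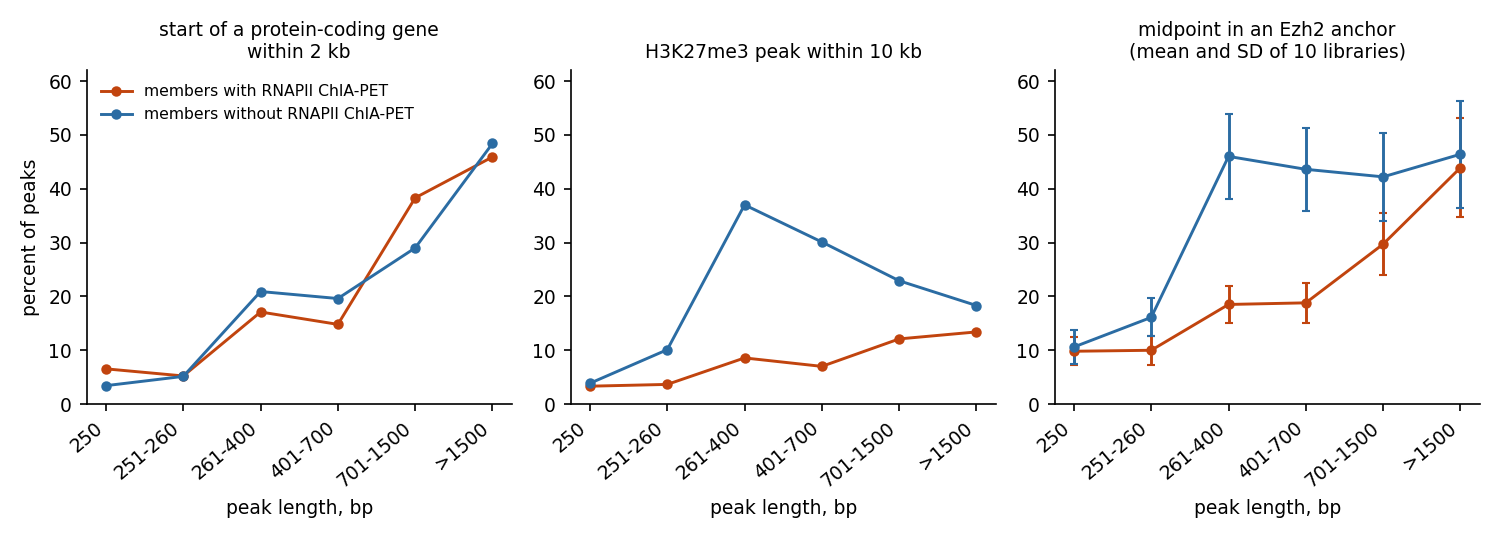
Percent of unmarked PRC2 peaks, by peak length in bp, that lie within 2 kb of a protein-coding start (left), within 10 kb of an H3K27me3 peak (middle) or with their midpoint in an Ezh2 interaction anchor (right, mean and SD of 10 B6NJ libraries), for peaks with RNAPII ChIA-PET in orange and without in blue. Starts are more common among peaks over 260 bp in both kinds, while nearness to H3K27me3 and Ezh2 anchors part most at 261 to 400 bp, with 8.57% against 37% near H3K27me3.

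Of 21631 protein-coding genes, 2090 (9.66%) had an unmarked peak within 2 kb of their start, and 1558 (7.2%) had unmarked peaks and no other PRC2 peak there. Among the 1558, 804 had only peaks with RNAPII ChIA-PET, 692 only peaks without and 62 had both. PRC2 peaks with H3K27me3 lay at 2788 starts (12.9%), of which 342 also had an unmarked peak.

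The best known Polycomb targets had PRC2 peaks with H3K27me3 at their starts. All 19 Hox genes and all 22 other developmental transcription factors had one there. Unmarked peaks alone means no other PRC2 peak within 2 kb, so none of these genes could have them. Beside the peak with H3K27me3, an unmarked peak lay at 0 of the 19 and 2 of the 22. None of 16 core and general pluripotency genes and none of 20 ribosomal protein genes had unmarked peaks alone. Genes that did were few in each list: Dppa3, a maternal factor of naive pluripotency, among 16 naive pluripotency genes, and Tcf7, a nuclear effector of Wnt signalling, among 16 Wnt genes. Lefty2, a Nodal antagonist, was the single gene of 16 in the BMP and TGF-beta list. Among 13 PRC2 subunit genes the single gene was Ezhip, which encodes an inhibitor of Ezh2. Among 15 trithorax and enhancer regulators they were Kmt2a and Kmt2c, both H3K4 methyltransferases.

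Imprinted genes had the largest such share among the lists, followed by fibroblast markers with Col1a1 and Fbln2 (2 of 12, 16.7%) and by germline genes. Igf2r, the receptor that clears insulin-like growth factor 2, Impact, a regulator of translation, and Peg3, a zinc finger protein, made 3 of 16 imprinted genes (18.8%), all with RNAPII ChIA-PET. Sohlh2, a transcription factor of germ cells, with RNAPII ChIA-PET, and Taf7l, a germ-cell TFIID subunit, without, made 2 of 14 germline genes (14.3%). Cntnap2, which encodes a neuronal adhesion protein, had an unmarked peak without RNAPII ChIA-PET. Against 7.2% of all protein-coding genes these are counts of 1 to 3, and none of the lists was tested. Enrichment at these starts was low, from 1.34 at Lefty2 to 2.47 at Igf2r, except for 7.3 at Impact. The Kmt2a, Kmt2c, Tcf7, Impact and Peg3 peaks lay within 1 kb of an RNAPII ChIP peak, the closest at 0.087 kb for Impact.

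The strongest peaks at starts were of 2 shapes. With RNAPII ChIA-PET, the 10 of highest fold were at Ttyh1, BC049352, Dst, Lpp, Card6, Slc27a6, Retnla, Cxcr6, Stap2 and Clcn6, from 64.9 at Ttyh1 to 18.9 at Clcn6, and were 250 to 491 bp long. Ttyh1 encodes a membrane protein of the tweety family, Dst a linker of the cytoskeleton, Cxcr6 a chemokine receptor and Clcn6 an endosomal chloride transporter. Without RNAPII ChIA-PET, the 10 were at Fgf16, Cited1, Arhgap6, Prr16, Zfp709, Irf4, Oxct2b, Slc22a3, Gpr26 and Fam110c, with folds from 13.5 at Fgf16, a growth factor gene, to 7.34 at Fam110c. These were 1971 to 5375 bp long, except for the 251 bp peak at Zfp709. The Cited1 peak (chrX:102248727-102254101, 5375 bp, fold 12.8) and the Fgf16 peak (chrX:105762781-105766797, 4017 bp) were each in an Ezh2 anchor in 9 of the 10 B6NJ libraries, and the Irf4 peak in 10. Of the 10 with RNAPII ChIA-PET, the Stap2 peak was in 10, the BC049352 peak in 4, the Dst peak in 1 and the other 7 in 0.

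Among the 5 longest unmarked peaks, all with RNAPII ChIA-PET, 1 lay at a gene start. It covered the start of Bcor, a co-repressor gene whose product works with Polycomb proteins (chrX:12154966-12160959, 5994 bp, fold 4.15), and was in an Ezh2 anchor in 10 of 10 libraries. A peak at chr17:39842788-39849053 (6266 bp, fold 37.2) was also found in 10 of 10. The other 3, at chr4:3079445-3086694, chr9:2999793-3006174 and chr17:3025886-3031708, were found in 0 of 10.

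Promoter windows that overlapped unmarked peaks were poorer in CpG than those under PRC2 peaks with H3K27me3. The median ratio of observed to expected CpG was 0.605 in 346 windows with RNAPII ChIA-PET and 0.515 in 438 without, against 0.734 in 2191 windows with H3K27me3 and 0.574 in all 21045 protein-coding windows. Windows with a ratio of at least 0.6 made up 50.9%, 33.6%, 70.8% and 48.1% of these sets in the same order. Median GC content was 62% with RNAPII ChIA-PET, 59% without, 65.3% with H3K27me3 and 56.7% in all.

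Motifs were searched as exact letters on both strands of these windows. The CG-rich hexamer GCGCGC was in 20.2% of windows with RNAPII ChIA-PET, 14.2% without, 33.9% with H3K27me3 and 18.1% of all. The Ets site CCGGAAGT, bound by activators of housekeeping promoters, was in 1.16% with RNAPII ChIA-PET, 1.83% without, 0.867% with H3K27me3 and 5.2% of all. The Yy1 site AAGATGGC was in 0.578%, 0.457%, 0.822% and 3.07% of the same sets. The CCAAT box was in 27.2%, 28.8%, 30.6% and 38.5%, and the CTCF core CCACNAGG in 7.23%, 4.57%, 5.2% and 5.11%. For the Ets, Yy1 and CCAAT letters the shares of both unmarked kinds, like those with H3K27me3, lay below that of all windows, and these differences were not tested. A match is a run of letters and not a bound site.

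Contacts of the unmarked peaks were sparse in E14 cells. The midpoint lay in an anchor of the pooled PRC2 interaction list for 57.4% of peaks with RNAPII ChIA-PET (95% exact interval 56.3% to 58.4%), 62.4% of those without (61.3% to 63.4%) and 98.5% of PRC2 peaks with H3K27me3 (98% to 98.8%). For interactions of at least 5 PETs the shares were 38.5%, 46.5% and 92.8%. With anchors up to 5 kb wide the unmarked kinds stood at 51.8% and 52.8%. The median number of interactions per peak was 1 for both unmarked kinds and 8 with H3K27me3. Those interactions were called on the libraries that gave the PRC2 peaks, so these shares are a description.

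Interactions that touched a few unmarked peaks held a large part of the PETs in the whole interaction list. With the limit set after the values were seen, 7 peaks were each touched by at least 1000 interactions, and all 7 had RNAPII ChIA-PET. The peak at chr8:25227105-25227590, inside Tacc1, a gene for a centrosomal protein, had a PRC2 fold of 12228, an RNAPII ChIA-PET fold of 5825 and 11306 interactions. The peak at chr9:2999793-3006174 had 7138, and those at chr2:98662004-98663209 and chr2:98666025-98667552 had 6326 and 3394. The peaks at chr9:35304989-35305819, chr14:19415534-19419929 and chr12:3109648-3110339 had 4028, 2817 and 1802. Together the 7 were touched by 35726 of 309803 interactions (11.5%), which held 1773832 of 3611175 PETs (49.1%). Most of these PETs came from the chr2 pair, touched by interactions of 1452206 and 1596049 PETs. An interaction that touches both peaks counts in both values. Together the values far exceed the 1773832 PETs of all 7 peaks, so most PETs of each were shared with the other. The chr2 pair lay 0.497 and 1.07 kb from an H3K27me3 peak. In its interactions of most PETs, the anchor also held a PRC2 peak with H3K27me3. Among PRC2 peaks with H3K27me3 the highest number of interactions was 7255.

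Counted by interaction, most of these contacts were long, and they were all but missing from the Ezh2 lists of the B6NJ cells. Anchors lay over 2 Mb apart in 96.7% of the interactions that touched the 7 peaks and in 44.2% of the others. These shares count interactions and not PETs. Of interactions with an anchor of unmarked peaks alone, the one of most PETs held 191442, and its anchors lay under 20 kb apart. In the Ezh2 lists of the B6NJ lines, which hold 4734 to 9354 interactions each, 9 of 10 libraries had no interaction touching any of the 7, and the remaining library had 1. Interactions with anchors at least 20 kb apart and at least 1 anchor of unmarked peaks alone were then ranked by PETs. The 10 of most PETs held 2848 to 6748. Each had an anchor at the chr2 pair or the chr9 pair of these 7 peaks, and 0 of 10 Ezh2 libraries held any of them. The 5 unmarked peaks of highest PRC2 fold were all among the 7. At the 7 peaks the PRC2 fold was 419 to 12514 and the RNAPII ChIA-PET fold 515 to 10259. The E14 input libraries were not used, so the part of this signal that does not depend on the precipitated protein was not tested. Sequence at these places was not read, since no genome was used here.

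With the 7 peaks set aside, 17990 interactions had an anchor that held unmarked peaks and no other PRC2 peak. The opposite anchor held no PRC2 peak in 69.4%, a PRC2 peak with H3K27me3 in 17%, unmarked peaks alone in 10.6% and other PRC2 peaks in 3.06%. Median spans were 0.0483 Mb to anchors without a PRC2 peak, 0.384 Mb to anchors with H3K27me3 and 0.366 Mb between unmarked anchors. Of the 10 contacts of most PETs with H3K27me3 anchors, 8 had a matching interaction in 0 to 2 of the 10 Ezh2 libraries, including the strongest with 1601, 659 and 317 PETs. Among these 8, the contact of 1601 PETs had its H3K27me3 anchor at chr2:98664189-98665188, between the chr2 peaks that were set aside. Its other anchor was 183 kb wide. The remaining pair of contacts recurred, and 1 of them joined chr12:9422567-9431243 to the anchor of Osr1, a transcription factor gene of kidney and heart development, with 189 PETs and a matching interaction in 10 of 10 Ezh2 libraries. The other joined chr17:85483502-85490765 to the anchor of Six3, a transcription factor gene of forebrain and eye, with 128 PETs and a match in 9 of 10. Of the 7 contacts between unmarked anchors among those of most PETs, 5 were in 0 Ezh2 libraries (913, 653, 641, 527 and 447 PETs) and 1 in 5 (731 PETs). In the remaining contact, chr17:39842309-39849799 was joined to the Stap2 start over 16155 kb with 594 PETs, and it was found in 10 of 10 Ezh2 libraries. The first of these anchors held the gene AY036118, and the part of reads with several positions in this contact was not tested.

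Several clusters of unmarked peaks lay in gene families. The median was 5 peaks per 1 Mb window over 2519 windows that held any. The window chr4:147000001-148000000 held 134, of which 129 had RNAPII ChIA-PET, beside 9 zinc finger genes, and chr8:20000001-21000000 held 115, of which 112 had it. The window chr12:115000001-116000000, with 54 immunoglobulin heavy chain variable genes, held 110, of which 83 had RNAPII ChIA-PET. The window chr17:36000001-37000000, with 20 H2 genes of the major histocompatibility complex, held 46, of which 20 had it. On chromosome 4 as a whole 60.3% of unmarked peaks had RNAPII ChIA-PET, against 45.8% to 53.3% on the other chromosomes. The treatment of reads with several positions is not stated for these peak lists, and near-identical copies make the counts uncertain.

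In the B6NJ cells, unmarked peaks with RNAPII ChIA-PET were found in Ezh2 contacts less often than those without. In the 2 libraries of chr9-F1, 12.5% and 15.5% of peaks with RNAPII ChIA-PET had their midpoint in an Ezh2 interaction anchor, against 22.7% and 27% of those without. In chr9-G9 the shares were 17% and 16.2% with, against 30.7% and 30.6% without. In chr7-D4 they were 20.6% and 18.2% with, against 33.7% and 32.2% without, and in chr7-F4 they were 19.6% and 11.3% with, against 33.2% and 19.5% without. In the parental line they were 10.3% and 15.3% with, against 19.6% and 25.7% without. The share with RNAPII ChIA-PET was the lower of the pair in every library, although the ranges over libraries overlapped, from 10.3% to 20.6% against 19.5% to 33.7%.

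The means were 15.7% ± 3.44 with RNAPII ChIA-PET and 27.5% ± 5.45 without (SD, n = 10 libraries). The paired difference was -11.8 percentage points ± 2.22 (SD), negative in 10 of 10 libraries, with p = 0.00195 in a two-sided exact permutation test by sign flips, the smallest p that 10 pairs can give, and 0.00293 after Benjamini-Hochberg adjustment over 3 tests. Libraries of a line share its cells, and with the mean of each of 5 lines the difference was the same with p = 0.0625, the smallest that 5 pairs can give, so it did not pass 0.05. The size depended on which peaks were compared. It was -4.45 points for peaks over 10 kb from every H3K27me3 peak, -5.93 for PRC2 peaks above the median fold, -2.07 for peaks up to 260 bp and -21.6 for longer ones. With anchors up to 5 kb wide it was -4.63. Every interaction in all 10 Ezh2 lists had a PRC2 peak of the E14 list in at least 1 anchor, so the lists are not independent of that map.

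**Figure D4:**
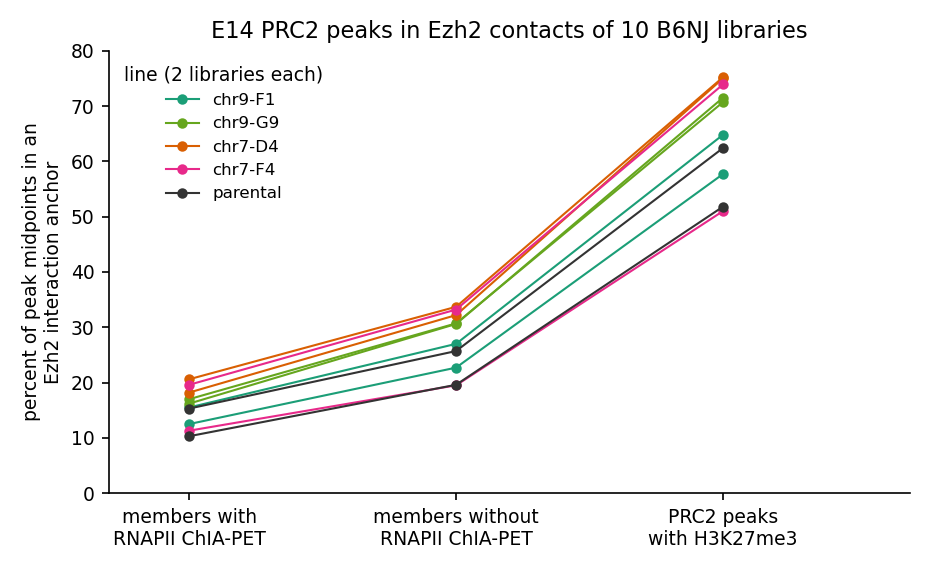
Percent of E14 PRC2 peaks whose midpoint lies in an Ezh2 interaction anchor, for unmarked peaks with RNAPII ChIA-PET, unmarked peaks without it and PRC2 peaks with H3K27me3, with a line for each of 10 libraries of the B6NJ lines (2 per line, by colour). In every library the share is lowest with RNAPII ChIA-PET and highest with H3K27me3.

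All unmarked peaks together were in Ezh2 anchors in 21.5% ± 4.41 of cases, against 65.4% ± 9.35 for PRC2 peaks with H3K27me3 (SD, n = 10 libraries). The difference was -43.9 points ± 5.04, negative in 10 of 10 libraries, with p = 0.00195 in the same exact permutation test and an adjusted p of 0.00293. With the mean of each line p was 0.0625. For anchors up to 5 kb wide the difference was -28.4 points, and for peaks over 1500 bp of both classes it was -22.9. Among unmarked peaks over 1500 bp, 43.9% ± 9.22 with RNAPII ChIA-PET and 46.4% ± 9.97 without were in an Ezh2 anchor (SD, n = 10 libraries). At 261 to 400 bp the means were 18.5% ± 3.51 and 46% ± 7.9, so the kinds stood closest together among the longest peaks and at 250 bp, where they were 9.81% ± 2.62 and 10.6% ± 3.11.

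Ezh2 contacts recurred at a small share of unmarked peaks. With RNAPII ChIA-PET, 55.7% of peaks were in an anchor in none of the 10 libraries, 13.2% in at least 5 and 279 (3.35%) in all 10. Without it, 44.3% were found in none, 26.6% in at least 5 and 818 (9.96%) in all 10. Of the peaks found in all 10, 45.9% with RNAPII ChIA-PET and 77.1% without lay within 10 kb of an H3K27me3 peak, against 1.31% and 1.27% of those found in none. Peaks of the highest fold were not those found most: of the 50 peaks with RNAPII ChIA-PET and a fold of at least 100, 94% were in an E14 anchor and 2% in an Ezh2 anchor in the median library, while of the 2049 with a fold under 2 the median library had 24.2%.

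The deletions left the share of Ezh2 interactions at unmarked anchors within the spread of the libraries. Per 10000 interactions, those with an anchor that held unmarked peaks alone numbered 3957 and 4091 in chr9-F1. They numbered 4156 and 3987 in chr9-G9, 4082 and 4018 in chr7-D4, 4189 and 3681 in chr7-F4, and 3775 and 3983 in the parental line. The means were 4020 ± 159 in the deletion clones (SD, n = 8) and 3879 ± 147 in the parental line (SD, n = 2), and the ranges overlapped. The difference was 141 with p = 0.311 in a two-sided exact permutation test, where the smallest possible p was 0.0444. It was 36.7 without parental library 1 and 245 without parental library 2, so a single parental library sets much of its size. The deleted chr7 interval overlapped 3 PRC2 peaks, of which 2 were unmarked without RNAPII ChIA-PET (709 bp with a fold of 1.76 and 482 bp with a fold of 1.66) and flanked a peak of 6650 bp with H3K27me3. The deleted chr9 interval overlapped 1 PRC2 peak, with H3K27me3, and 6 of its 26 outgoing E14 interactions reached an anchor with an unmarked peak, against 3 of 15 for the chr7 interval.

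RNA of genes with unmarked peaks at the start was next compared between the deletion clones and the parental line. Of genes with only RNAPII ChIA-PET peaks at the start, 675 of 771 with a single ID (87.5%) had enough counts to be tested, against 436 of 679 (64.2%) with only peaks without it. The shares were 83% for genes with H3K27me3 PRC2 peaks and 68.6% for genes with no PRC2 peak. In all, 1330 genes of any type at unmarked peaks were among 19993 tested, 768 with RNAPII ChIA-PET, 506 without and 56 with both. Calls are adjusted p of at most 0.05 in edgeR's quasi-likelihood test over all tested genes. The 4 deletions share the same 3 parental libraries, so their calls are not independent of each other.

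In the chr9 clones 286 of the 1330 genes were called higher (21.5%), where 17.1% of all tested genes were, and 207 lower (15.6%), where 20.6% of all were. In the chr7 clones 379 were higher (28.5%, against 27.6% of all) and 424 lower (31.9%, against 35.7%). In the chr3 clones 337 were higher (25.3%, against 25.4%) and 448 lower (33.7%, against 35.4%). In the chr2 clones 450 were higher (33.8%, against 31.2%) and 388 lower (29.2%, against 34.1%). The shares lay nearest those of all genes in the chr3 clones and departed most in the chr9 and chr2 clones, and these differences were not tested. Without genes of the X chromosome, 240 were higher and 204 lower in the chr9 clones, for which no share of all genes was computed. Median log2 changes were 0.076, -0.06, -0.093 and 0.066 at unmarked peaks, against -0.015, -0.067, -0.075 and -0.017 over all tested genes. The balance of higher and lower calls depended on the fit: with the RLE size factors of DESeq2 the chr7 clones had 408 higher and 393 lower and the chr3 clones 363 and 404. With the libraries of the deletion and the parental line only, they had 394 and 343 in the chr7 clones and 362 and 362 in the chr3 clones, so no direction is read from these counts. In the chr7, chr3 and chr2 comparisons, library depth and deletion cannot be told apart.

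The calls were also counted for the 2 kinds of peak. Higher calls made up 21% with RNAPII ChIA-PET and 22.1% without in the chr9 clones, 30.6% and 26.7% in the chr7 clones, 28.3% and 21.5% in the chr3 clones, and 34.5% and 33% in the chr2 clones. Lower calls made up 18% with RNAPII ChIA-PET and 11.9% without in the chr9 clones, 35.9% and 25.7% in the chr7 clones, 36.7% and 29.1% in the chr3 clones, and 33.1% and 22.9% in the chr2 clones. The lower shares with RNAPII ChIA-PET lay near the 20.6%, 35.7%, 35.4% and 34.1% of all tested genes, and those without lay below them. Fewer lower calls were not smaller falls. The 5th percentile of log2 changes was -0.648 with and -0.78 without in the chr9 clones, and -1.58 and -1.95 in the chr7 clones. It was -1.52 and -2.46 in the chr3 clones, and -1.33 and -1.62 in the chr2 clones. The part of low counts in the calls was not tested. The deletions share parental libraries, and the differences between the kinds were not tested.

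**Figure D5:**
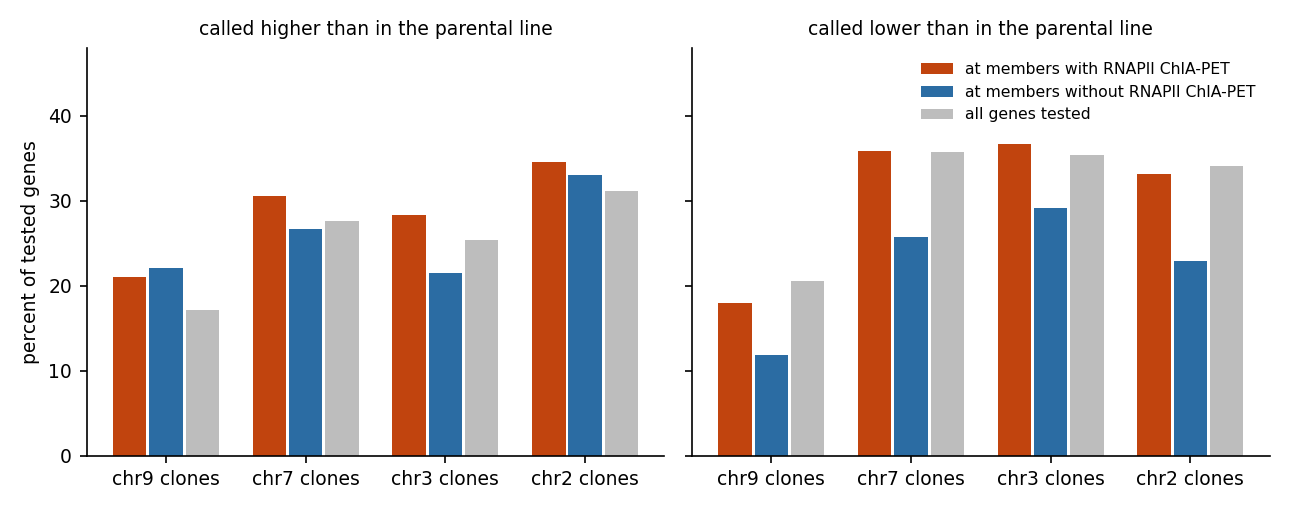
Percent of tested genes called higher (left) or lower (right) than in the parental line at adjusted p of at most 0.05 in edgeR, for genes at unmarked peaks with RNAPII ChIA-PET (orange), at unmarked peaks without it (blue) and all 19993 genes tested (grey), in 4 deletions. Lower calls are fewest at peaks without RNAPII ChIA-PET in each deletion, for example 11.9% against 20.6% of all genes in the chr9 clones. A share of calls is not a size of change.

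The genes named next are the 3 largest rises and 3 largest falls of each deletion among genes that passed in each clone and averaged 5 CPM or more. Cited1 had 10.3 and 12.3 CPM (counts scaled to equal library size) in chr9-F1 and 13.7, 15 and 15.6 CPM in chr9-G9, against 2.16, 2.42 and 1.98 CPM in the parental line. Every clone library was above every parental library, and the log2 change was 2.57 ± 0.12 (SE, adjusted p = 5.52e-18 in edgeR). In the chr2 clones Cited1 also rose, by 3.63 ± 0.12 (adjusted p = 3.35e-22), while its change was -0.12 in the chr7 clones (adjusted p = 0.407) and -0.01 in the chr3 clones (adjusted p = 0.937).

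Xlr5c, of a lymphocyte-regulated gene family on the X chromosome, had 9.47 and 9.39 CPM in chr9-F1 and 22.7, 21.9 and 29.6 CPM in chr9-G9, against 0.303, 0.184 and 0.291 CPM in the parental line, a log2 change of 5.85 ± 0.20 (adjusted p = 4.32e-21). Its change in the chr2 clones was 6.13 ± 0.20. Both clones of each pair were far above the parental line. Xlr5c has close copies beside it, so the counts may be divided among them. Gpnmb, which encodes a membrane glycoprotein, rose by 2.69 ± 0.12 in the chr9 clones (adjusted p = 1.9e-18). Stk33, a kinase gene with a 2145 bp peak of fold 4.17 over its start, had 13.2, 10.4 and 10.3 CPM in chr2-D10 and 18.9, 20.2 and 17.4 CPM in chr2-G5, against 0.303, 0.0717 and 0.106 CPM in the parental line, a log2 change of 6.44 ± 0.24 (adjusted p = 8.93e-21).

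Reads counted to the Mir6236 locus, whose mature sequence is given above, were 15.8, 18.5 and 17.4 CPM in chr7-D4 and 23.8, 21.6 and 16.2 CPM in chr7-F4, against 0.417, 0.768 and 0.159 CPM in the parental line (log2 change 5.42 ± 0.33, adjusted p = 1.55e-15). The changes were 5.29 ± 0.33 in the chr3 clones and 5.23 ± 0.33 in the chr2 clones. These are reads of an mRNA library over the locus and not the mature microRNA, and all 3 deletions are the ones sequenced less deeply than the parental line. S100a13 and S100a1, genes of calcium-binding proteins whose starts lie under 1 shared peak of 416 bp, rose by 2.65 ± 0.13 and 2.28 ± 0.11 in the chr7 clones and by 2.83 ± 0.13 and 2.42 ± 0.11 in the chr3 clones. Their annotations overlap, so reads may be divided between them.

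Among the named falls, Tdh, the threonine dehydrogenase on whose breakdown of threonine mouse ES cells depend, had 102, 90.4 and 148 CPM in chr7-D4 and 112, 153 and 130 CPM in chr7-F4, against 492, 485 and 444 CPM in the parental line, a log2 change of -1.96 ± 0.09 (adjusted p = 1.74e-18). In the chr2 clones it had 51.8, 54.6 and 47.4 CPM in chr2-D10 and 337, 328 and 270 CPM in chr2-G5, so the 2 clones of that deletion differed widely, with log2 changes of -3.21 and -0.61. Rtl6, a retrotransposon-derived gene, and Dbn1, which encodes an actin-binding protein, had log2 changes of -2.02 ± 0.09 and -1.95 ± 0.12 in the chr2 clones. Slc18b1 and Slc6a15, both transporters, each fell by 1.51 in the chr7 clones. In the chr3 clones Prss35, a serine protease gene, fell by 2.08 ± 0.15 and Shisa7 fell by 1.35 ± 0.08, and in the chr9 clones the log2 changes of Ap1m2, Ccdc141 and Tor3a were -0.99, -0.99 and -0.86.

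Col1a1, the collagen gene of fibroblasts, had 2.22, 3.73 and 2.86 CPM in chr3-C2 and 2.97, 3.6 and 4.06 CPM in chr3-H7, against 15.6, 14.7 and 24.1 CPM in the parental line (log2 change -2.50 ± 0.21, adjusted p = 4.47e-12). Col1a1 and Fbln2 are at once genes with unmarked peaks and fibroblast markers, and the cultures hold fibroblast feeders. Of 12 fibroblast markers, at least 10 were above 0 in every library, and 11 had enough counts to be tested. The summed level of these 11 was 231 to 423 CPM in chr9-G9, 114 to 152 CPM in chr9-F1 and 60.3 to 74.7 CPM in the chr7 clones. It was 41.4 to 45.6 CPM in the chr3 clones and 117 to 135 CPM in the chr2 clones, against 79.8 to 107 CPM in the parental line. In the chr9 clones Col1a1 rose by 1.32 ± 0.20 and Fbln2 by 1.12 ± 0.12. The part of feeder RNA in these results was not tested. All 8 pluripotent cell markers were above 0 in every library, with a summed level of 6995 to 9190 CPM.

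Several listed genes with unmarked peaks were called in more than 1 deletion. Calls were common among all tested genes, with 17.1% higher and 20.6% lower in the chr9 clones. For all genes the shares were 27.6% and 35.7% in the chr7 clones, 25.4% and 35.4% in the chr3 clones, and 31.2% and 34.1% in the chr2 clones. The deletions share the parental libraries, so calls in several of them are not read as a trait of these genes. The imprinted gene Peg3 rose by 1.07 ± 0.04 in the chr9 clones, 0.79 ± 0.04 in the chr7 clones, 0.18 ± 0.04 in the chr3 clones and 0.97 ± 0.04 in the chr2 clones, with 170 to 189 CPM in the parental libraries. Impact rose by 0.41, 1.16, 0.85 and 0.62 and Igf2r by 0.24, 0.67, 0.79 and 0.61 in the same order, each with an SE of 0.04 and an adjusted p of at most 2.09e-05. The germ-cell gene Sohlh2 rose by 1.12, 0.38, 0.13 and 1.45, with an adjusted p of 0.022 in the chr3 clones. Dppa3 rose by 0.54, 1.03, 0.94 and 2.09, and Lefty2 changed by -0.53, -1.34, -0.84 and -1.30. Kmt2a was called higher in all 4, by 0.17, 0.39, 0.26 and 0.26, with an adjusted p of at most 0.0374 in edgeR. Some listed genes were called in fewer deletions, such as Tcf7 in 1 of 4 and Kmt2c in 2 of 4. Cntnap2 was called in all 4 but with both signs, at 0.48, -0.62, -0.28 and 0.46. Of the 10 genes under the strongest peaks without RNAPII ChIA-PET, Fgf16, Prr16, Irf4 and Gpr26 had too few counts to be tested. Of the 10 with RNAPII ChIA-PET, BC049352, Slc27a6, Retnla and Cxcr6 had too few.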

How the data were processed

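Peak lists of PRC2, RNAPII, H3K27me3 and CTCF were used as the authors deposited them, pooled over libraries, with a fold enrichment (a ratio to background) and a −log10 q-value per peak. Per the submitters' processing notes they were made on mm10 with cutadapt 1.14, BWA (0.7.12 for ChIP) and MACS2 2.1.1.20160309. The E14 interaction list holds PET counts and p-values, which per the file headers come from ChiaSig with a smallest distance of 3000 bp. For the deposited Ezh2 lists, which hold PET counts, no source used here names a caller. Deposited gene counts are whole reads, made per the submitters' processing notes with Trim Galore 0.4.0, HISAT2 2.1.0 and HTSeq 0.6.1, tools that are not named for chr3-C2 library 1. No source used here says whether HTSeq counted by strand.

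Peaks overlapped at 1 bp, and a peak was in an anchor if its midpoint was. Starts came from RefSeq (GRCm38.p6), with both ends as possible starts of genes that had no listed promoter window. Ezh2 shares were compared by exact permutation. RNA was fitted in 1 edgeR model of 26 libraries (TMM factors, quasi-likelihood test, Benjamini-Hochberg adjustment), with 19993 genes left by filterByExpr and each deletion's clones averaged and set against the parental line. R 4.3.3, edgeR 4.0.16 and limma 3.58.1 ran it. Reads outside genes, 3.5% to 5.8% per library, stayed out of library sizes. On simulated counts for the chr9 clones against the parental line, the model recovered 100% of 67 genes changed by 1.5-fold. Only well-counted genes were changed there, every gene had the same dispersion, and clones of a deletion did not differ. Recovery of genes with low counts was thus not tested.

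Named genes were, among genes with unmarked peaks and no other PRC2 peak within 2 kb of the start, the 10 of highest peak fold of each kind, the 5 longest peaks, listed genes, the 10 interactions of most PETs, and per deletion the 3 genes that rose most and the 3 that fell most among those passing in each clone at 5 CPM or more on average. Sequences at peak centres, also foreseen, were not read, since no genome was used, and promoter windows took their place. The unmarked peaks, gene lists and tests were chosen with earlier results of these data known. Same-numbered libraries of different lines did not deviate together (correlations of -0.06 to 0.0531 over 100 pairs). Alternatives were other overlaps, fold limits, anchor widths and start distances, RLE factors, filters, DESeq2 1.42.0, a replicate block and leaving out each library. E14 RNA, ATAC and input libraries were not used here. One gene of the lists is not reported here. Other tools were bedtools 2.31.1, matplotlib 3.10.9, scipy 1.17.1, pandas 2.3.3, numpy 2.4.6 and Python 3.11.15.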

Additional observations from a re-analysis of the deposited data

Results flagged for a closer look

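Among the 8 Ezh2 libraries of deletion clones, library 2 of chr7-F4 stood apart with 3681 interactions at an anchor of unmarked peaks alone per 10000, below the 3957 to 4189 of the other 7. Its gap to the nearest of them was larger than Dixon's 95% critical value for its group. Chance gives such a mark in about 1 of 20 groups, and 5 groups were examined. This library also had the narrowest anchors, with a median of 1.67 kb, and anchors covering 32 Mb, against 40.7 to 104 Mb in the other 9 libraries. The part of anchor width in this value was not tested. Without it, the difference between the deletion clones and the parental line was 189 per 10000, with p = 0.111 in the exact permutation test.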

How the results depend on the processing

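The count of 16552 unmarked peaks fell to 7718 when PRC2 peaks were limited to those above the median fold. The share with RNAPII ChIA-PET, 50.4%, was 69.2% with that limit, 39.1% with RNAPII ChIA-PET peaks above their median fold, 47.2% when the midpoint had to lie inside, and 52.9% when a PRC2 peak counted as marked only if at least 50% covered. Both Ezh2 differences kept their sign in every alternative run, and leaving out each library gave -12.2 to -11.5 points and -44.8 to -43.2 points. With the mean of each of 5 lines (-11.8 and -43.9 points) p was 0.0625 for both, the smallest possible. The comparisons by H3K27me3 distance, by length and by anchor width, those without interactions of the 7 peaks, and those without the X chromosome were chosen after seeing the data. The difference between deletion clones and parental line ranged from 36.7 to 245 per 10000 when libraries were left out.

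Genes with a start within 500 bp of an unmarked peak gave 530 calls for chr7, 515 for chr3 and 558 for chr2, since fewer genes count as members. Leaving out each library gave 392 to 488 calls for chr9, 722 to 798 for chr7, 697 to 781 for chr3 and 769 to 822 for chr2. The replicate block gave 492, 798, 778 and 832 calls, and for the Ezh2 interactions per 10000 it gave a difference of 141 with p = 0.24 by permutation within replicate numbers, although the numbers do not pair the libraries. DESeq2 gave 510, 812, 774 and 841 calls, of which 417 higher and 395 lower for chr7, where the split of the reported fit was 379 and 424. All 330 alternative values of the named genes kept their direction and their side of the threshold. Pooled peak lists give no replicate error, so the depth behind a single short peak is unknown, and the 1 to 10 libraries in which a peak is found depend on anchor width, which differed between libraries.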
